A study of Mus musculus with 24 samples.

Results

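The troponin, tropomyosin and actin genes of the thin filament were followed in tibialis anterior muscle of mice that lack the histone chaperone gene Hira in their muscle fibres. The set held every probe row whose annotated symbol names a troponin C, I or T, a tropomyosin, or 1 of the actins Acta1, Actc1, Actb and Actg1, which gave 17 rows for 15 genes out of 26423 rows for 17742 named genes. Of the actins, Acta1, Actc1 and Actb had rows. The myosin heavy and light chains, which the same rule would take in, and Actg1 were not analysed here.

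Knockout animals carried Myf6 cre/+ with Hira flox/-, that is, 1 floxed copy and 1 null copy of Hira. Control animals carried Myf6 cre/+ with Hira flox/+, so Cre was present in both groups and by genotype control fibres kept 1 intact copy. All animals were 6 months old and of the mixed strain background C57BL6/J;129S1/SvImJ. Each group had 4 animals with 3 hybridisations apiece, 24 arrays in all. Animal numbers in the labels fall into a lower series (A) and a higher series (B), each with 2 animals of either group. Cre came from the locus of Myf6, a myofibre gene, whereas every cell of a knockout animal carried the null copy.

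In a striated muscle fibre the troponin complex sits on the thin filament, where troponin C binds calcium, troponin I holds contraction off at rest and troponin T anchors the complex to tropomyosin. Tropomyosin is a coiled coil that lies along actin and covers or exposes the sites that myosin binds. Many of these proteins have separate genes for slow, fast and cardiac fibres, while some genes serve more than 1 fibre type. The tibialis anterior of the mouse is a fast muscle, so its own forms are mainly Tnnc2, Tnni2, Tnnt3 and Tpm1, while Tnni1 and Tnnt1 belong to slow fibres.

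In knockout muscle the slow troponin I and slow troponin T transcripts were higher, while no fast, cardiac or non-muscle gene of the set passed the test. Tnni1 was 2.01-fold higher and Tnnt1 2.42-fold higher than in control muscle. Together, 2 of the 15 genes passed the test and both rose. The test was limma on the means of the 8 animals, with p-values adjusted over all genes and a threshold of 0.05. Over the whole array 9.28% of genes passed, 4.28% higher and 5.01% lower in knockout muscle, against 13.3% of the set, so the number of calls in the set was near that of the array. The median log2 fold change of the 15 genes was -0.07, as was that of all genes. The groups of animals did not overlap in 4 members (Tnni1, Tnnt1 and Tpm2 higher, Actb lower), against 17.5% of all genes, 7.24% higher and 10.2% lower in knockout muscle.

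The Hira row read 8.63, 9.30, 8.52 and 8.83 on the log2 scale in knockout animals 1 to 4, against 8.85, 9.11, 8.92 and 8.99 in control animals 1 to 4, which is -0.15 apart (limma, adjusted p = 0.623, 95% interval -0.51 to 0.22; exact two-sided permutation p = 0.457, where 0.0286 is the smallest possible). Knockout animal 2 lay above every control animal and the others below. The place of this row relative to the deleted part is not known here, so it does not check the genotypes. The myofibre markers Ckm, Ttn, Neb, Des, Cacna1s and Mb, which mark the labelled tissue, had mean log2 levels of 15.67 to 18.37 in knockout and 16.10 to 18.58 in control muscle, and 0 of these 6 passed (3 at an unadjusted p under 0.05, all lower). Averaged over the 6, the animals read 17.29 to 17.59 in knockout and 17.60 to 17.91 in control muscle. All 6 were below 0, with a median log2 fold change of -0.28, although another row of Mb gave 0.26. Of all 17742 genes, 10588 were below 0. All arrays shared a median intensity of 626.4. The number of arrays and animals limits the precision.

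**Figure D1:**
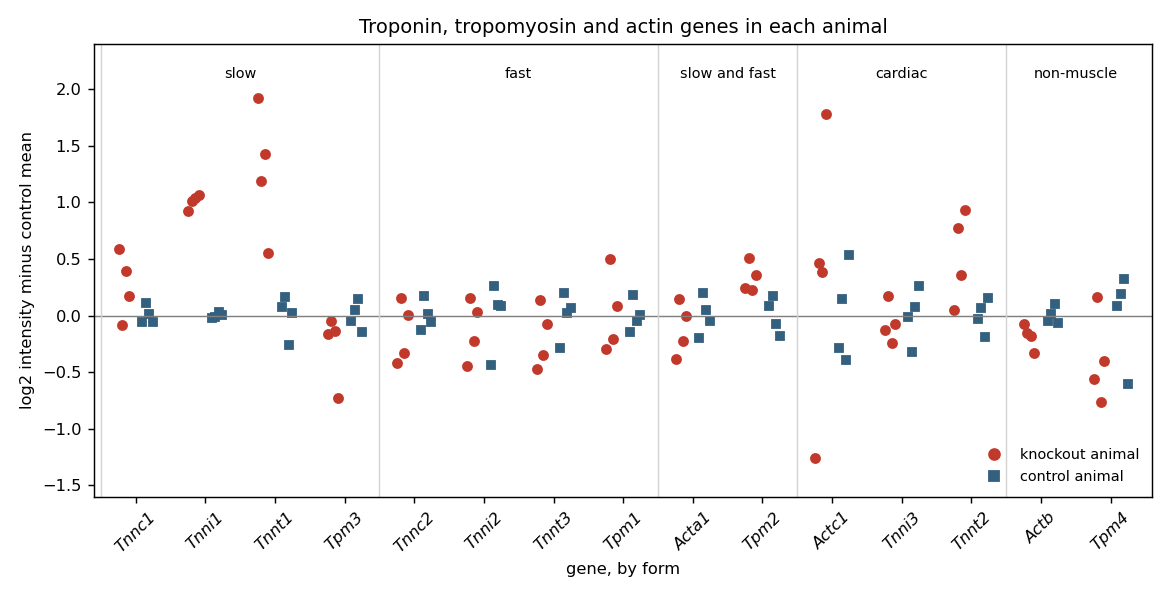
Each point is 1 animal (mean of 3 hybridisations) and shows its log2 intensity minus the control mean of that gene, with knockout animals as red circles left of control animals as blue squares and genes ordered by form. All 4 knockout animals lie above all 4 control animals for Tnni1, Tnnt1 and Tpm2 and below them for Actb, and the widest spread is that of Actc1 in knockout animals.

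The promoters of the 2 slow troponin genes that rose, and of Tnnc1, the slow troponin gene that did not pass, are shown so that their letters can be set side by side. Each stretch is the 250 bases before the start farthest upstream in RefSeq, on the gene's strand of build GRCm38.p6. Tnni1 lies at chr1:135799171-135799420 on the plus strand, Tnnt1 at chr7:4515976-4516225 on the minus strand and Tnnc1 at chr14:31208062-31208311 on the plus strand. Capitals mark the letters that match a motif on either strand: the E-box CANNTG, the MCAT element CATTCC, the CACC-box CCACCC and the TATA box TATAAA.
Tnni1: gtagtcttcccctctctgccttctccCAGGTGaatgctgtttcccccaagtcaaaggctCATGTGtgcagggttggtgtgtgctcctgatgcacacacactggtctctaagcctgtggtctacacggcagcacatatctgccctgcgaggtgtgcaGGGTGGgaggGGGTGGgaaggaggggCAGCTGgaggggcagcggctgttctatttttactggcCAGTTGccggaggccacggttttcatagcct
Tnnt1: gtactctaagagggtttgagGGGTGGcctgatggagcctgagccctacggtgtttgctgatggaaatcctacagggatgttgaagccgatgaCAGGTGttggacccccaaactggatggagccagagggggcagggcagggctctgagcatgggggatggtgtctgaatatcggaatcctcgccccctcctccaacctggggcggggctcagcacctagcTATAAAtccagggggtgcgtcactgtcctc
Tnnc1: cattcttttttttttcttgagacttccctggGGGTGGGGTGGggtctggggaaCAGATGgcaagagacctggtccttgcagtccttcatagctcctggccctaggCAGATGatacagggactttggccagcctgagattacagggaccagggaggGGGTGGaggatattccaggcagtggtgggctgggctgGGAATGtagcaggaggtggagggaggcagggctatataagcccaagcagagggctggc

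The Tnni1 stretch held 4 E-boxes and 2 CACC-boxes, and the Tnnt1 stretch held 1 E-box, 1 CACC-box and a TATA box 30 bases before the start. The Tnnc1 stretch held 2 E-boxes, 3 CACC-boxes, of which 2 overlap by 1 base, and 1 MCAT element. It also reads tatataa near its end, which the search for the exact letters TATAAA did not take in. Of 32841 mouse promoters of the same length in the table, 66.2% held an E-box, 28.1% a CACC-box, 12.6% an MCAT element and 12.4% a TATA box. E-boxes are the sites of MyoD family factors, to which Myf6 belongs, but most promoters hold these letters by that count. A match describes the letters and is not a measured site. RefSeq promoters were found for 12 of the 15 members.

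Tnni1, the slow troponin I, was the steadiest rise. Its intensity was 9053, 9611, 9815 and 9974 in knockout animals 1 to 4, against 4699, 4724, 4875 and 4805 in control animals 1 to 4. The lowest knockout animal was well above the highest control animal, and the animals of a group differed little. The log2 fold change was 1.01 ± 0.10 (SE; 95% interval 0.79 to 1.23; limma, adjusted p = 0.00017). The SD between animals of a group was 0.046 on the log2 scale, below the 0.127 between hybridisations of an animal. In series A alone the difference was 0.99 (limma, adjusted p = 0.078) and in series B alone 1.03 (adjusted p = 0.027), with 2 animals a group in each.

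Tnnt1, the slow troponin T, rose more and less evenly. Its intensity was 10445, 6257, 7395 and 4033 in knockout animals 1 to 4, against 2890, 3083, 2297 and 2788 in control animals 1 to 4. The groups did not overlap, and knockout animal 4 was the nearest to the controls. The log2 fold change was 1.27 ± 0.24 (SE; 95% interval 0.74 to 1.80; limma, adjusted p = 0.0081). Here the SD between animal means was 0.570 in knockout and 0.183 in control animals on the log2 scale, or 0.424 pooled over both groups. Single hybridisations of an animal differed by an SD of 0.103, so the knockout animals differed by more than hybridisations did. Without knockout animal 1 the difference was 1.06 and without knockout animal 4 it was 1.51, and the call held without any 1 of the 8 animals (limma, largest adjusted p = 0.029). The difference was 1.44 in series A (adjusted p = 0.105) and 1.11 in series B (adjusted p = 0.108).

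Tnnc1, which slow fibres share with the heart, had log2 levels of 13.34, 12.66, 13.15 and 12.93 in knockout animals 1 to 4, against 12.69, 12.86, 12.76 and 12.69 in control animals. Knockout animal 2 was below all 4 control animals and the other 3 were above them. The difference was 0.27 ± 0.15 (SE; 95% interval -0.06 to 0.59; limma, adjusted p = 0.293). Tpm3, the slow tropomyosin, which other cells make too, pointed the other way. Its log2 levels were 13.85, 13.97, 13.88 and 13.29 in knockout animals, against 13.97, 14.07, 14.16 and 13.87 in control animals. The difference was -0.27 ± 0.16 (SE; limma, adjusted p = 0.318), and knockout animal 4, the lowest for Tnnt1 among knockout animals, was also the lowest for Tpm3. Of the 4 slow members, 2 thus rose and 2 did not pass, with a median log2 fold change of 0.64 against -0.07 for all genes.

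**Figure D2:**
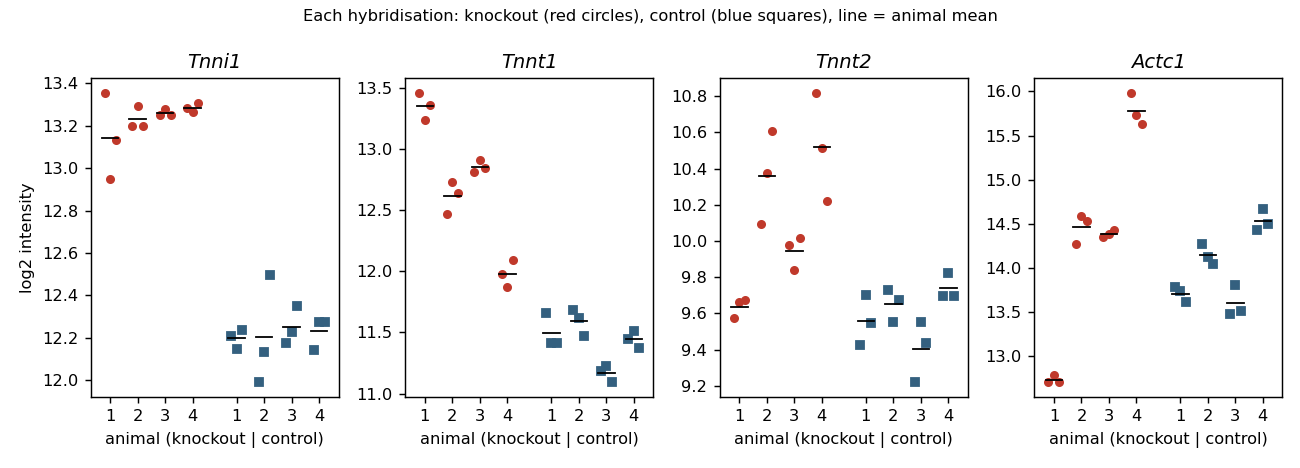
Each point is 1 hybridisation, plotted as log2 intensity against animal, with knockout animals as red circles left of control animals as blue squares and a line at each animal mean; the axes differ between genes. The 3 hybridisations of an animal lie close together for Tnnt1 and Actc1, where knockout animals differ widely, and the knockout animals are close together for Tnni1.

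Among the cardiac forms, Actc1, the actin of heart and of fetal skeletal muscle, varied more between knockout animals than any other member. Its intensity was 6821, 22604, 21416 and 56307 in knockout animals 1 to 4, against 13404, 18143, 12452 and 23711 in control animals 1 to 4. Knockout animal 1 was below every control animal and knockout animal 4 above every one. The SD on the log2 scale was 1.25 in knockout and 0.43 in control animals (n = 4 each), while hybridisations of an animal differed by an SD of 0.129. The difference between groups was 0.34 ± 0.50 (SE; limma, adjusted p = 0.713). It was -0.14 without knockout animal 4 and 0.88 without knockout animal 1, and -0.33 in series A but 1.02 in series B; whether the series differ was not tested. The order of the knockout animals for Actc1, from high to low 4, 2, 3 and 1, was the reverse of their order for Tnnt1.

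Tnnt2, the troponin T of heart and of fetal skeletal muscle, followed the same order of knockout animals as Actc1. Its log2 levels were 9.64, 10.36, 9.94 and 10.52 in knockout animals 1 to 4, against 9.56, 9.65, 9.40 and 9.74 in control animals. Knockout animal 1 lay within the control range and the other 3 above it. The log2 difference was 0.53 ± 0.18 (SE; 95% interval 0.12 to 0.93; limma, adjusted p = 0.103), and without knockout animal 1 it was 0.69 (adjusted p = 0.031). With any other single animal left out Tnnt2 did not pass, and its log2 difference was as low as 0.39 (limma, largest adjusted p = 0.216). Tnni3, the cardiac troponin I, was near the dark end of the array, with intensities of 143 to 191 in knockout and 136 to 203 in control animals. The level below which values were treated as dim was 125. Its log2 difference was -0.07 ± 0.15 (SE; limma, adjusted p = 0.811).

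Of 4 measured markers of heart cells, Nppa and Nppb, the natriuretic peptides, Gata4 and Ankrd1, 0 passed (limma; 0 at an unadjusted p under 0.05), and their mean log2 level was 9.99 to 10.44 in knockout and 10.08 to 10.72 in control animals, with none of the 4 dim in both groups. Of 5 satellite cell and myoblast markers, Calcr, the calcitonin receptor of quiescent satellite cells, fell to a dim level in knockout muscle, and Pax7, Pax3, Vcam1 and Cdh15 did not pass; their mean log2 level was 9.44 to 9.56 in knockout and 9.58 to 9.69 in control animals. The part of such cells in the values of Actc1 and Tnnt2 was not tested. In whole muscle, fewer cells of a type and less RNA per cell cannot be told apart.

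No fast troponin passed the test. Tnni2, the fast troponin I, had log2 levels of 18.21, 18.81, 18.42 and 18.69 in knockout animals 1 to 4, against 18.22, 18.91, 18.74 and 18.74 in control animals. Its difference was -0.12 ± 0.18 (SE; 95% interval -0.51 to 0.27; limma, adjusted p = 0.717), and under cyclic loess it turned to 0.03. Tnnt3, the fast troponin T, read 18.08, 18.70, 18.21 and 18.48 in knockout animals, against 18.27, 18.75, 18.58 and 18.62 in control animals, a difference of -0.19 ± 0.16 (limma, adjusted p = 0.495). Tnnc2, the fast troponin C, stood at -0.15 ± 0.15 (limma, adjusted p = 0.568). The intervals leave room for falls of 0.47 to 0.54 on the log2 scale in these 3 genes. In all 3 the animals of the groups overlapped.

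These fast transcripts were among the brightest on the arrays. Tnni2, Tnnt3 and Tnnc2 had single-array intensities of 214477 to 534717, between 41.3% and 81.0% of the highest intensity on their array, and whether the response is linear there was not tested. For Tnni1 and Tnnt1 the intensities were at most 2.23% of the array's highest.

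Acta1, the main actin of skeletal fibres, and the brightest Tpm1 row followed the same animals. In knockout animals 1 and 3 the mean log2 level of Tnni2, Tnnt3, Tnnc2, Tpm1 and Acta1 was 17.94 and 18.07, and in knockout animals 2 and 4 it was 18.56 and 18.35. In control animals 1 to 4 it was 18.11, 18.55, 18.37 and 18.35. Each of the 5 genes was higher in knockout animals 2 and 4 than in 1 and 3. The highest intensity of an array, averaged per animal, was 505264 and 472087 in knockout animals 1 and 3. It was 631709 and 546423 in knockout animals 2 and 4, and 553312, 672896, 568463 and 608840 in control animals 1 to 4. It moved with the 5 genes only in part: knockout animal 1 was above animal 3 here but below it in their mean level. Under quantile normalization, which gives all arrays the same distribution, the SD between animals dropped to 0.061 for Acta1 and 0.064 for Tnnc2, against 0.202 and 0.212 in the deposited scaling. For Tnni2 it was 0.195, against 0.284. These genes lie near the top of every array, so a shared distribution narrows their spread by construction. Under cyclic loess the SD between animals was 0.15 for Acta1, 0.151 for Tnnc2 and 0.236 for Tnni2. The cause of the spread was not tested.

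**Figure D3:**
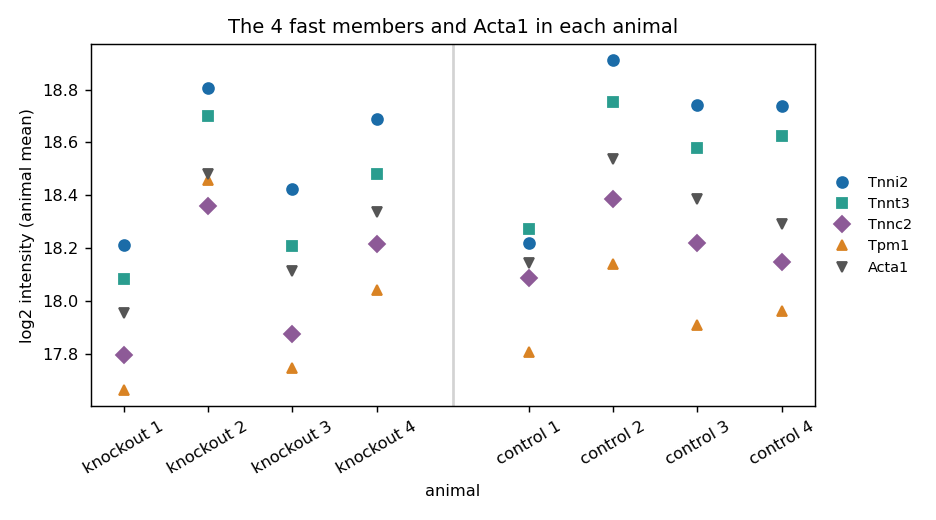
Points give the animal mean log2 intensity of Tnni2, Tnnt3, Tnnc2, the brightest row of Tpm1, and Acta1, with knockout animals left of control animals. All 5 genes are lower in knockout animals 1 and 3 than in knockout animals 2 and 4, and all 5 are lowest in animal 1 and highest in animal 2 among the controls.

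Acta1 itself read 17.95, 18.48, 18.11 and 18.34 in knockout animals 1 to 4, against 18.14, 18.54, 18.39 and 18.29 in control animals, on the log2 scale. The difference was -0.12 ± 0.14 (SE; limma, adjusted p = 0.654), and it turned to 0.02 under both quantile normalization and cyclic loess. Tpm2, the beta tropomyosin of slow and fast fibres, did not pass the test. Its intensity was 44888, 54069, 44420 and 48726 in knockout animals, against 40319, 42751, 35933 and 33377 in control animals, and the groups did not overlap. The log2 difference was 0.34 ± 0.12 (SE; 95% interval 0.06 to 0.61; limma, adjusted p = 0.120). It passed under quantile normalization (0.42; adjusted p = 0.0094) and cyclic loess (0.43; adjusted p = 0.0093).

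Tpm1, the alpha tropomyosin, makes many transcripts by alternative promoters and splicing, for striated muscle, smooth muscle and other cells. It had 3 rows, which disagreed. The brightest, which stood for the gene, read 17.66, 18.46, 17.75 and 18.04 in knockout animals, against 17.81, 18.14, 17.91 and 17.96 in control animals, a difference of 0.02 ± 0.17 (SE; limma, adjusted p = 0.953) whose sign changed with the setting. A second row read 12.19, 12.61, 12.29 and 12.30 in knockout animals, against 13.06, 12.97, 12.96 and 12.87 in control animals. There every knockout animal was below every control animal. With every row as its own feature the second Tpm1 row fell by 0.62 ± 0.13 on the log2 scale, or 1.54-fold (limma, adjusted p = 0.014). The remaining row was dim in both groups, at or below 125 on 22 of 24 arrays. Which transcripts each Tpm1 row detects is not known here. In that fit 3 of the 17 rows passed, Tnni1 and Tnnt1 higher and this row lower, while 7.00% of all rows did, 3.23% higher and 3.77% lower.

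**Figure D4:**
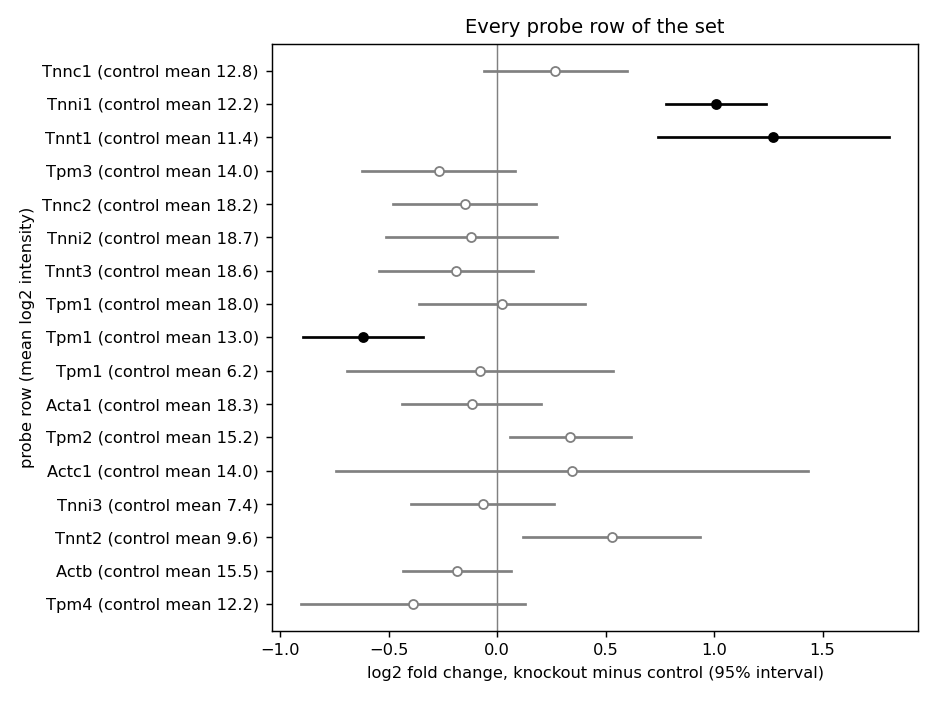
Points give the log2 fold change (knockout minus control) of each of the 17 rows with its 95% interval from the fit over all 26423 rows; filled black points passed an adjusted p of 0.05, open grey points did not, and the mean log2 level in control animals stands beside each name. Tnni1 and Tnnt1 lie above 0 at 1.01 and 1.27, and of the 3 Tpm1 rows only that with a control mean of 13.0 lies below 0 with its whole interval.

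Neither measured non-muscle form passed the test. Actb, the cytoplasmic beta actin, read 15.43, 15.35, 15.33 and 15.17 in knockout animals 1 to 4, against 15.45, 15.51, 15.61 and 15.44 in control animals, on the log2 scale. The groups just failed to overlap, and the difference was -0.19 ± 0.11 (SE; 95% interval -0.43 to 0.05; limma, adjusted p = 0.322). Tpm4, a non-muscle tropomyosin, had intensities of 3119, 5157, 2708 and 3485 in knockout animals, against 4886, 5261, 5749 and 3025 in control animals. The groups overlapped, and the log2 difference was -0.39 ± 0.23 (SE; limma, adjusted p = 0.333). Of 10 measured smooth muscle and pericyte markers, 4 fell (Tagln, Rgs5, Acta2, Smtn) and 1 rose (Lmod1), and their mean log2 level was 10.79 to 10.96 in knockout and 11.01 to 11.25 in control animals, with Cnn1 dim in both groups. Of 8 endothelial markers Icam2 and Emcn fell, and all 8 were below 0. Their mean log2 level was 11.89 to 12.32 in knockout and 12.39 to 12.82 in control animals. Over the whole array 9.28% of genes passed, 5.01% lower, and 10588 of 17742 were below 0.

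Other cell types were represented too. Of 4 Schwann cell markers S100b and Mal fell and all 4 were below 0, with a median log2 fold change of -0.71 and a mean log2 level of 10.04 to 10.69 in knockout and 10.77 to 11.37 in control animals. Mbp, 1 of the 4, had another row at 0.42 ± 0.13 (log2, SE), which did not pass. Of 5 adipocyte markers Lep, dim in knockout muscle, and Cfd fell and all 5 were below 0, with a median of -0.70 and a mean level of 10.74 to 10.86 in knockout and 11.13 to 11.96 in control animals. The 1 measured red cell marker, Alas2, fell by 1.04 on the log2 scale, with levels of 10.06 to 11.26 in knockout and 11.38 to 11.85 in control animals. In these 3 lists, as in the smooth muscle, endothelial, satellite cell and myofibre lists, the mean levels of the groups did not overlap. The mean over all genes was 9.96 to 10.02 in knockout and 9.99 to 10.08 in control animals. Of all 17742 genes 9.28% passed, 10588 were below 0, and 17.5% had groups of animals that did not overlap.

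In the macrophage and fibroblast lists the mean levels of the groups overlapped. Of 7 macrophage markers Cd163 fell, while 5 of 7 were above 0 without passing, with a median log2 fold change of 0.43 and a mean level of 10.88 to 11.81 in knockout and 10.64 to 11.68 in control animals. Of 7 fibroblast markers 0 passed (limma), and Col1a1, dim in both groups, was the 1 at an unadjusted p under 0.05. Their median was 0.06 and their mean level 11.74 to 12.46 in knockout and 11.83 to 12.13 in control animals. Dcn, 1 of the 7, had another row at -0.51 ± 0.21 (log2, SE), which did not pass (limma, unadjusted p = 0.037, adjusted p = 0.197). The part of these cells in the values of Actb, Tpm4 and the second Tpm1 row was not tested.

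Troponin I and T genes sit in pairs in the mouse genome, and the members of a pair are given side by side here. In the RefSeq gene order Tnni1 and Tnnt2 lie on chromosome 1 with 1 coding gene between them, Tnnt1 and Tnni3 lie side by side on chromosome 7, and Tnni2 and Tnnt3 lie elsewhere on chromosome 7 with 1 coding gene between them. In the first pair the log2 differences were 1.01 for Tnni1 and 0.53 for Tnnt2, with 0.06 ± 0.14 (SE) for Lad1 between them. In the second pair they were 1.27 for Tnnt1 and -0.07 for Tnni3, and in the fast pair -0.12 for Tnni2 and -0.19 for Tnnt3. Within 2 coding genes on either side of these pairs or between their members, 11 of 14 neighbours were measured. Of these 3 passed (limma), where 9.28% of all genes did. Igfn1, next but 1 after Tnnt2, was higher by 1.59 ± 0.36 (limma, adjusted p = 0.019). Igf2, next but 1 after Tnnt3, was higher by 1.06 ± 0.26 (limma, adjusted p = 0.026). Lsp1, between Tnni2 and Tnnt3, was lower at -0.61 ± 0.10 (limma, adjusted p = 0.0043). These neighbours were picked after member values were seen.

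Other genes of fibre type and of the filaments are given by list, to be read against the 9.28% of all genes that passed. Of 8 calcium-handling genes that differ between fibre types, 3 rose and 1 fell. Atp2a2, the slow calcium pump, rose 4.13-fold, although of its other rows 1 gave 1.80 and 1 gave -0.44 on the log2 scale. Sln, a regulator of the pump, rose 2.35-fold and Casq2, the slow and cardiac calsequestrin, 2.37-fold. Pln, phospholamban, fell 1.56-fold. The fast forms Atp2a1, Casq1 and Pvalb, a calcium buffer, stood at -0.11 ± 0.14, -0.21 ± 0.13 and -0.35 ± 0.19 (log2, SE) and did not pass; these were named after their values were seen.

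Of 22 measured regulators of fibre type 1 rose and 2 fell, a share of 13.6% that is near that of all genes. Mrtfa, a coactivator of serum response factor on actin genes, rose 1.54-fold (limma, adjusted p = 0.013). Six4, a homeodomain factor of fast-fibre genes, fell 1.68-fold (adjusted p = 0.0098) and Tbx15, a T-box factor of glycolytic fibres, 1.44-fold (adjusted p = 0.046). Sox6, a repressor of slow genes, differed by 0.03 ± 0.12 and Ppargc1a, which promotes slow and oxidative fibres, by 0.14 ± 0.19 (log2, SE), and neither passed; both were named after their values were seen. The list's median log2 fold change was -0.04.

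Of 17 thin filament and Z disc partners, Lmod3, a leiomodin that nucleates thin filaments, rose 1.42-fold. By the row that stood for each gene 0 fell. That is a share of 5.88% against 9.28% of all genes, with a median log2 fold change of -0.11. With every row as its own feature, another row of Pdlim7 fell by -0.66 on the log2 scale (limma, adjusted p = 0.00898). Another row of Tmod3 fell by -0.499 (adjusted p = 0.048). A row of Ldb3 at 0.997 did not pass (adjusted p = 0.056). Of 6 measured genes that bind or regulate myosin, 2 fell. Trim63, a ubiquitin ligase of thick filament proteins, fell 1.78-fold (limma, adjusted p = 0.0084). Ppp1r12b, a targeting subunit of myosin phosphatase, fell 2.29-fold (adjusted p = 0.020), with -0.43 (log2) in its other row.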

How the data were processed

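Total RNA of tibialis anterior muscle, extracted with Trizol per the labels' protocols, was labelled and hybridised. The label field and the labelling protocol name different dyes, so the dye is not settled. The deposited table holds 1 linear probe intensity per array for 24 arrays. For its scanner, background correction and scaling, the labels give nothing. The authors' intensity columns share 1 median, and between 0% and 5.37% of an array's values lie at or below 0.

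Values under the 5th percentile of all values, 38.8, were set to it, log2 was taken, and the replicate was the animal, as the mean of its 3 hybridisations. Old symbols were updated through the RefSeq gene table of GRCm38.p6, where 18213 rows met a current symbol and 2126 a synonym. The row of highest mean stood for a gene with several rows. Knockout was set against control by limma 3.58.1 (R 4.3.3) over all 17742 genes, with Benjamini-Hochberg adjustment. SD and SE are on the log2 scale.

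The named genes are every member that passed or did not overlap, up to 4 members of each form by smallest p and the 2 brightest, and up to 4 members of each other list that passed, or up to 2 where none did. Further genes of marker lists are named only to say what a list held. Members and lists were chosen with earlier results of these data known. The fit was tested on simulated data. Alternatives covered scaling, floors, rows per gene, hybridisations, variance models, animal number series and each animal left out.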

Additional observations from a re-analysis of the deposited data

How the results depend on the processing

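Under 27 alternatives, Tnni1 and Tnnt1 were higher in knockout muscle in all of the 26 fits over genes, and Tnni1 passed in 25 and Tnnt1 in 24 of them. The members called, 2 in all, became 4 with all arrays and the animal as a random block (adding Tnnt2 and Tpm2), 4 with the hybridisation number as a further replicate block (the same genes) and 4 with array weights (adding Tnnc1 and Tpm2). They were 0 in series A alone and 1 in series B alone, where 2 animals a group remain. The correlations of same-numbered hybridisations between groups were 0.07, 0.46 and 0.17, so the numbers were not taken to pair arrays. The count over all genes, 1647, was 2569 under quantile normalization, 3149 and 2978 under the random and the replicate block, 3609 with array weights, 62 and 508 in the 2 series, and between 945 (without knockout animal 3) and 1693 with any 1 animal or hybridisation left out; without control animal 1 it was 1062.

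Signs turned in members that did not pass: Acta1 to 0.0230 under quantile normalization and 0.0237 under cyclic loess; Tnni2 to 0.0263 under cyclic loess; Actc1 to -0.0893 with array weights and -0.33 in series A, ranging from -0.14 to 0.88 with 1 animal or hybridisation left out; Tnni3 to 0.19 in series A, ranging from -0.17 to 0.0177; and Tpm1 to -0.23 with the mean over rows, -0.10 with array weights and -0.0426 in series B, ranging from -0.14 to 0.13. The causes were not tested. In all, 364 of 390 fold changes of members kept their direction and their side of the threshold.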
